A study of Mus musculus with 8 samples.

Results

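The 10 genes described here encode 7 matrix metalloproteases (Mmp2, Mmp3, Mmp9, Mmp10, Mmp11, Mmp13 and Mmp14) and 3 of their tissue inhibitors (Timp1, Timp2 and Timp3). They were chosen by symbol from 19938 genes with a named probe set, and each of the 10 has 1 probe set on the array, so no choice between probe sets was needed. The cells were 1 clone (C9) of mouse pre-iPSCs, which are cells that have left the somatic state but have not become induced pluripotent stem cells. They are called MaF pre-iPSC9P2 in the labels, which give neither strain nor genotype. Untreated cells stayed in mouse embryonic stem cell medium on a feeder layer, and treated cells received vitamin C (ascorbate, 50 µg/ml) in the same medium from day 2. Each treatment was sampled once on days 3, 4, 5 and 6, with the feeder cells removed before RNA extraction, which gave 8 arrays, 4 per treatment.

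Matrix metalloproteases are zinc enzymes, secreted or held at the cell surface, that cut collagens, proteoglycans and other proteins of the extracellular matrix. They are made as inactive precursors and become active when a propeptide is removed, by other proteases or, for Mmp11 and Mmp14, by furin inside the cell. Timp proteins bind the active site and block the enzymes. Fibroblasts and other mesenchymal cells are well-known sources of both, and several stromelysin and collagenase genes are classic targets of the transcription factor AP-1, a dimer of Fos and Jun proteins.

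All values are RMA values on the log2 scale, where a difference of 1 is a 2-fold change. Median values of the 8 arrays lay between 4.33 and 4.40, and correlations between pairs of arrays ran from 0.977 to 0.994. Nothing in the labels ties the days to cultures grown apart, and the p-values therefore reflect only how these arrays vary, which may be technical. Markers of pluripotent cells averaged 5.91 to 6.27 on the untreated arrays and 6.41 to 7.50 on those with vitamin C, and Pou5f1 had the highest mean of the list (12.06). Of these 19 markers, Nanog, Dppa5a, Dppa2, Utf1 and Tfcp2l1 were higher with vitamin C. Nanog, Lin28a and Tdgf1 rose with time in both treatments, and Sox2, Esrrb, Zfp42, Dppa5a, Dppa2, Dppa4, Utf1 and Tfcp2l1 with vitamin C, where the slopes of Sox2 differed between treatments. Markers of feeder cells or fibroblasts were clearly present as well, with averages of 28 genes from 6.13 to 7.02 without and from 6.01 to 6.53 with vitamin C. Their means ran from 2.81 for Fap to 10.98 for Fn1, and an array reports no marker as 0. Macrophage and blood cell markers (12 genes, 3.82 to 4.24) and endothelial markers (12 genes, 4.07 to 4.33) averaged close to or below the array medians, while single genes lay well above them. None of either list passed as a change with time without vitamin C. With it, of the macrophage and blood cell markers Csf1r (3.60 on day 3, 6.76 on day 6, adjusted p = 0.00147), Cd68 (5.95 and 8.10, adjusted p = 0.0102) and Cd74 (3.73 and 4.67, adjusted p = 0.0185) rose and Laptm5 (7.70 and 6.71, adjusted p = 0.0254) fell, and of the endothelial markers Sox17 rose and Tek fell (adjusted p = 0.0023 and 0.0328, limma slopes). Their part in the results on the 10 genes was not tested. In RNA from a pool of cells, fewer cells of a type and less RNA per cell cannot be told apart. Feeder cells had been removed before extraction, and which cells the feeder or fibroblast markers came from was not tested.

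The start regions of 3 metalloprotease genes are shown because these genes fell together over time in untreated cells and share a sequence. RefSeq promoter windows of build GRCm38.p6, from 250 bases before to 50 bases after the annotated start, were at hand for 8 of the 10 genes. The AP-1 motif TGANTCA, searched on both strands (it reads the same on each), lay in the windows of Mmp3, Mmp10 and Mmp13 and in none of the other 5. Timp1, 1 of those 5, also fell in untreated cells (-0.48 per day, adjusted p = 0.00977, limma slope). Mmp2 fell there as well and had no window. The 130 bases around each motif are given 5′ to 3′ with the motif in capitals, and Timp3, whose values behaved differently, is set beside them.
Mmp3, chr9:7445712-7445841, plus strand: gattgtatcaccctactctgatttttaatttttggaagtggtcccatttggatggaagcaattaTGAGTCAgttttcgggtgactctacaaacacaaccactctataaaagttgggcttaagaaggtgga
Mmp10, chr9:7502232-7502361, plus strand: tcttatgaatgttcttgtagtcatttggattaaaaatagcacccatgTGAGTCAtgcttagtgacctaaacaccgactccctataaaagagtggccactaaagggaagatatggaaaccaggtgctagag
Mmp13, chr9:7272404-7272533, plus strand: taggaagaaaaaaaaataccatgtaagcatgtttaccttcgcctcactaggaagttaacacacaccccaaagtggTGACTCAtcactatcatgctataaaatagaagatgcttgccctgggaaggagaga
Timp3, chr10:86300302-86300431, plus strand: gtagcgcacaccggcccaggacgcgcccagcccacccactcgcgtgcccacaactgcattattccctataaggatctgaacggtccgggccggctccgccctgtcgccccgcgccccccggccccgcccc

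The motif begins 46 bases before the annotated start of Mmp3, 63 before that of Mmp10 and 35 before that of Mmp13. The letters TATAAA follow it on the gene's strand in all 3 windows, beginning 7, 29 and 16 bases before the start. Of all 32851 promoter windows, 7.81% hold TGANTCA and 8.32% hold TATAAA on the gene's strand. The ETS motif AGGAAG, on either strand, lay in the windows of Mmp3, Mmp13, Mmp14, Timp1 and Timp3 and in 35.4% of all windows. Among 13 other metalloprotease genes with a window, 5 hold TGANTCA, and all 5 lie on chromosome 9 like Mmp3, Mmp10 and Mmp13, so that 8 of 10 metalloprotease genes of that chromosome hold it. A match of letters is a description and does not show that a factor binds.

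The first comparison asked which of these genes vitamin C cultures held at another level than untreated ones over the 4 days. The inhibitor gene Timp3 lay below its untreated level on every day, 2.04-fold lower in the mean over days. None of the 7 metalloprotease genes passed the test, and neither did Timp1 or Timp2, although the mean of every one of these 9 lay below the untreated mean. The test was a limma fit across all genes with day as a factor and Benjamini-Hochberg adjustment, with a threshold of 0.05. In that fit 0.752% of all genes were called and 0.216% were called lower, against 1 of the 10 genes here. The median difference of the 10 was -0.34, beside -0.01 over all genes.

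Timp3 encodes the inhibitor that stays bound to the extracellular matrix and that also blocks several ADAM and ADAMTS proteases. Without vitamin C its levels from day 3 to day 6 were 8.89, 8.87, 8.92 and 8.92. With vitamin C they were 8.17, 7.76, 7.82 and 7.73. The untreated arrays thus hardly varied (8.90 ± 0.03, SD, n = 4 arrays), the treated ones lay lower with a wider spread (7.87 ± 0.20, SD, n = 4 arrays), and the groups did not overlap. Over all genes, 2.61% had every array with vitamin C below every untreated array and 2.1% had every one above, and no other member did either.

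The difference of Timp3 was -1.03 ± 0.12 (log2, moderated SE, adjusted p = 0.00982 in limma). By day it was -0.72, -1.11, -1.10 and -1.18, so that from day 4 on the gene was at least 2-fold lower, as were 0.451%, 0.266% and 0.306% of all genes on days 4, 5 and 6. On day 3 Mmp13 was the member that was at least 2-fold lower, beside 0.301% of all genes. With day replaced by the mean of the fibroblast markers, Timp3 passed (-0.98 ± 0.14, moderated SE, adjusted p = 0.045). That mean changed with day and differed between treatments, so this fit cannot separate the markers from either. The call was lost without day 4 (-1.002, adjusted p = 0.133) and without day 5 (-1.004, adjusted p = 0.0833), with nearly the same size.

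**Figure D1:**
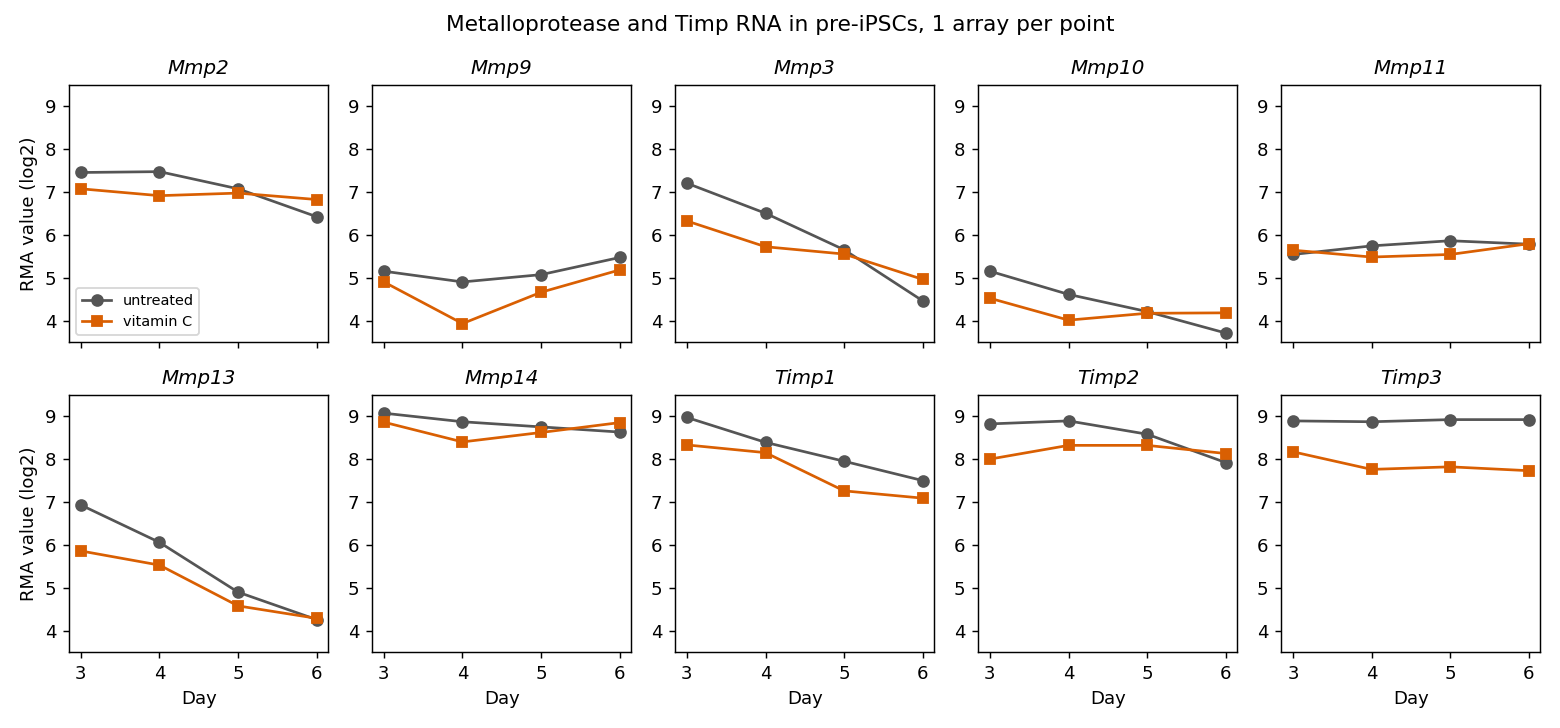
RMA values (log2) of the 10 genes on days 3 to 6 in untreated cells (grey circles) and in cells with vitamin C (orange squares), 1 array per point, with the same vertical axis in every panel. Timp3 is flat near 8.90 without vitamin C and lies between 7.73 and 8.17 with it, while Mmp3, Mmp13 and Timp1 decline in both treatments.

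Timp1, a soluble inhibitor whose gene lies on the X chromosome, was lower with vitamin C on each day but within a spread that overlapped. Its untreated levels were 8.97, 8.39, 7.95 and 7.50 on days 3 to 6. The levels with vitamin C were 8.33, 8.15, 7.26 and 7.09. On each day the treated array lay below its untreated partner, while the decline over days made the ranges of the groups overlap. The difference of -0.50 ± 0.12 (moderated SE) had an adjusted p of 0.102, and 0.0211 when the spread was modelled with the trend and robust options of eBayes.

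Timp2, the inhibitor that also takes part in the activation of pro-Mmp2 at the cell surface, was lower with vitamin C at first and not at the end. It measured 8.82, 8.89, 8.58 and 7.92 without vitamin C and 8.0, 8.32, 8.32 and 8.13 with it. Its daily differences were -0.82, -0.57, -0.26 and 0.21, and the mean of -0.36 ± 0.16 did not pass (adjusted p = 0.4). The spread of these differences (SD 0.44) exceeded their mean.

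Mmp3, Mmp10, Mmp2 and Mmp14 followed the same order, with lower values under vitamin C on days 3 to 5 and higher ones on day 6. For Mmp3, stromelysin 1, which cuts many matrix proteins and activates other precursors, the daily differences were -0.88, -0.77, -0.10 and 0.50. For Mmp10, stromelysin 2, they were -0.63, -0.60, -0.04 and 0.47. For Mmp2, gelatinase A, they were -0.39, -0.56, -0.10 and 0.41. The changes of sign leave small means, -0.31 ± 0.21 for Mmp3, -0.20 ± 0.18 for Mmp10 and -0.16 ± 0.16 for Mmp2 (moderated SE), with adjusted p-values of 0.617, 0.722 and 0.751. Mmp14, the membrane-bound enzyme that activates pro-Mmp2, differed by -0.15 ± 0.13 (adjusted p = 0.708), and its values of 8.40 to 9.07 on the 8 arrays make it the member with the highest mean probe set value, though values of different probe sets are not levels that can be ranked.

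Mmp13, the interstitial collagenase of mice, had daily differences of -1.07, -0.54, -0.32 and 0.04. The mean was -0.47 ± 0.17 (moderated SE, adjusted p = 0.264). Mmp9, gelatinase B, was lower with vitamin C on each day, by -0.25, -0.97, -0.40 and -0.29, with a mean of -0.48 ± 0.14 (adjusted p = 0.177). The largest of these 4 differences rests on the treated array of day 4, where Mmp9 was at 3.94. Mmp11, known as stromelysin 3 although it is a weak enzyme on matrix proteins, differed least, by -0.12 ± 0.11 (adjusted p = 0.753), and lay between 5.49 and 5.87 on all 8 arrays.

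**Figure D2:**
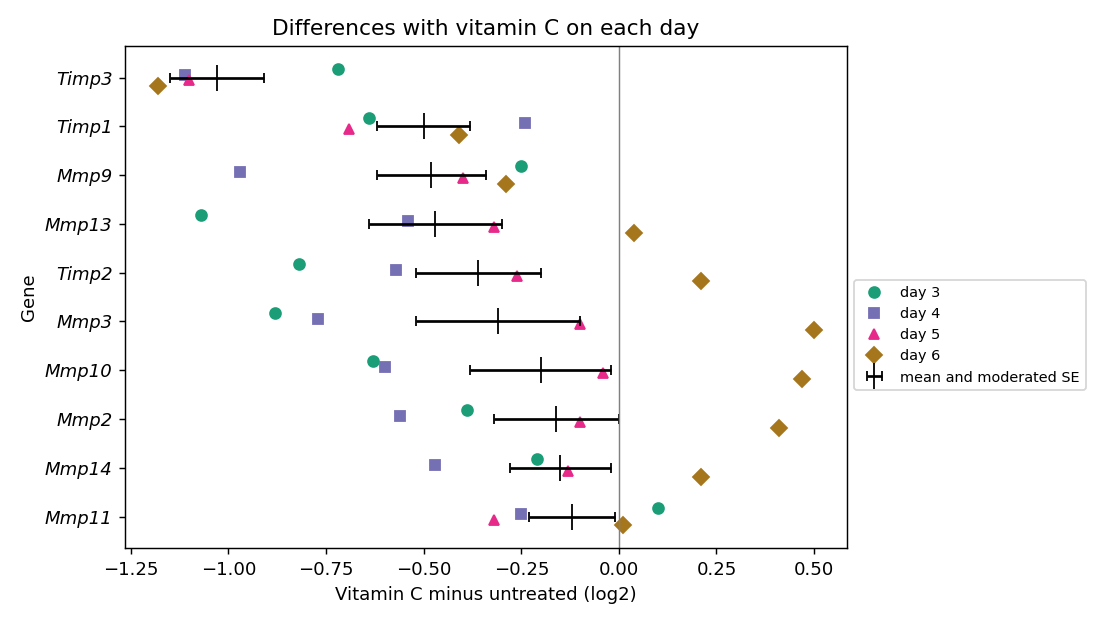
Difference between the array with vitamin C and the untreated array of the same day (log2) for each gene, with 1 symbol per day, and the mean over days with its moderated SE (black). Timp3 alone passed the limma test. For Mmp2, Mmp3, Mmp10, Mmp13, Mmp14 and Timp2 the day 6 difference lies above 0, by 0.04 for Mmp13, and those of days 3 to 5 below it. The day 6 difference rests on 1 array per treatment, and the share of all genes with this order was not counted. For none of these genes did the difference between slopes pass.

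The feeder or fibroblast markers moved with most of these genes. Of 28 markers measured, 25 lay below 0 in this comparison, 2 passed as lower with vitamin C (Col5a2 and Fbln2) and none as higher, with a median of -0.38. Their average differed by -0.49, -0.59, -0.38 and -0.11 on days 3 to 6, and the average of the 7 metalloproteases by -0.48, -0.60, -0.20 and 0.19. With the marker average in place of day, the differences of 5 genes changed sign, to 0.72 for Mmp3, 0.60 for Mmp13, 0.25 for Mmp10, 0.23 for Mmp2 and 0.15 for Timp1, and none of these passed (adjusted p from 0.188 to 0.83). The marker average changed with day and differed between treatments, so that fit cannot separate the markers from either. Their part in the differences of these 5 genes was not tested.

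**Figure D3:**
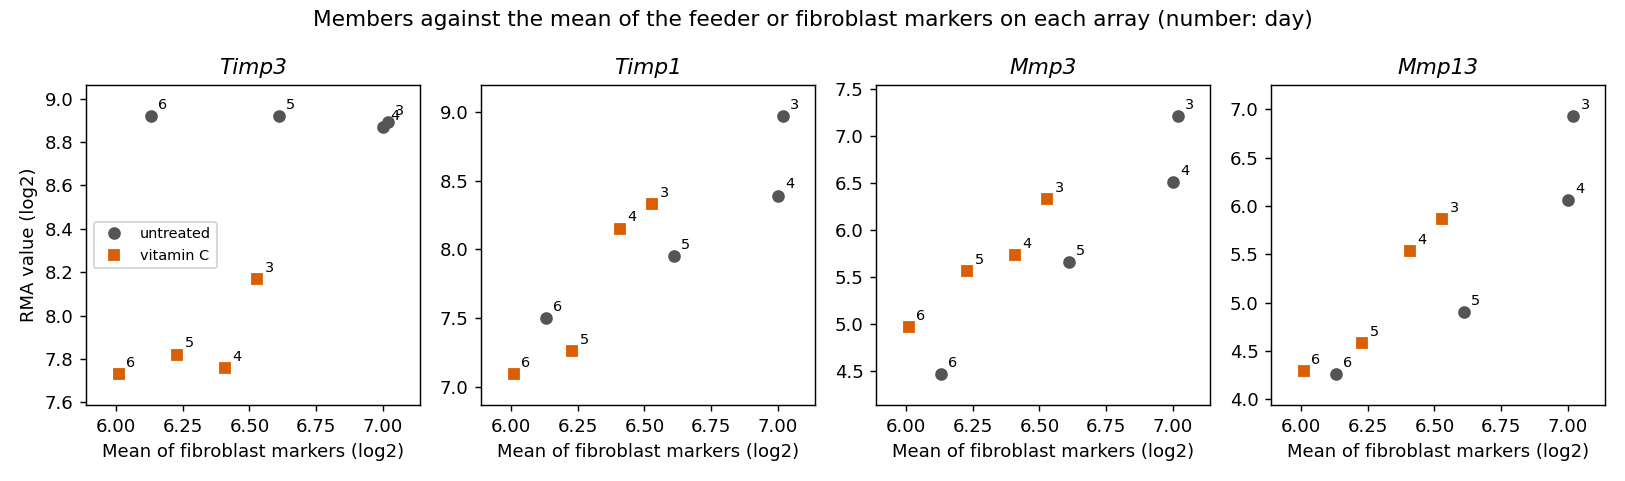
RMA value of Timp3, Timp1, Mmp3 and Mmp13 (log2, vertical) against the average of 28 feeder or fibroblast markers on the same array (log2, horizontal), with the day beside each point; vertical axes differ between panels. Timp3 of untreated cells stays near 8.90 while the marker average goes from 7.02 to 6.13, and within each treatment the other 3 genes are lower on arrays with lower marker averages; across treatments this order does not hold.

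The second comparison followed each treatment from day 3 to day 6. Without vitamin C, 4 metalloprotease genes (Mmp3, Mmp13, Mmp10 and Mmp2) and Timp1 fell with time, Mmp3 by 6.67-fold and Mmp13 by 6.38-fold from day 3 to day 6. With vitamin C, Mmp3, Mmp13 and Timp1 fell, by 2.56-fold, 2.96-fold and 2.36-fold. No member rose in either treatment. Slopes came from 1 limma model with a slope on day for each treatment. Among all genes 1.75% had a slope past the threshold without vitamin C, 0.968% falling and 0.782% rising, and 8.64% with it, 3.39% falling and 5.25% rising. Against this background 5 and 3 of the 10 genes fell. The 3 genes that fell in both treatments were among 0.376% of all genes that did so.

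Mmp3 without vitamin C went from 7.21 on day 3 over 6.51 and 5.66 to 4.47 on day 6. With vitamin C it went from 6.33 over 5.73 and 5.56 to 4.97. Each day was lower than the day before in both treatments, which was so for 9.52% of all genes without and 11.1% with vitamin C. The slope was -0.91 ± 0.07 per day without (moderated SE, adjusted p = 0.000784) and -0.42 ± 0.07 with vitamin C (adjusted p = 0.00573).

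Mmp13 took a similar course. Its untreated levels were 6.93, 6.06, 4.90 and 4.26. With vitamin C they were 5.86, 5.53, 4.58 and 4.29. The decline was again unbroken in both treatments, and the treatments started 1.07 apart and ended 0.04 apart. Both day 6 values lie below the medians of their arrays (4.38 and 4.4), where probe sets tend to understate changes. The slopes were -0.92 ± 0.07 (adjusted p = 0.000784) and -0.56 ± 0.07 per day (adjusted p = 0.00206).

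Mmp10 fell steadily without vitamin C, over 5.16, 4.62, 4.22 and 3.72, by -0.47 ± 0.07 per day (adjusted p = 0.0106). With vitamin C it stayed between 4.02 and 4.53, with a slope of -0.09 ± 0.07 (adjusted p = 0.499). These values lie around the array medians, and dim probe sets tend to understate changes. Mmp2 went from 7.46 over 7.48 and 7.08 to 6.43 without vitamin C, with a slope of -0.35 ± 0.07 (adjusted p = 0.0437) that missed the threshold after quantile normalization (-0.32, adjusted p = 0.0581). It was also lost without any one of the untreated arrays, and without the treated array of day 5 or day 6 (adjusted p from 0.058 to 0.796). With vitamin C Mmp2 kept between 6.83 and 7.08 (-0.07 ± 0.07 per day, adjusted p = 0.626).

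Timp1 fell at close to the same rate in both treatments, -0.48 ± 0.07 without (adjusted p = 0.00977) and -0.46 ± 0.07 with vitamin C (adjusted p = 0.00466). Timp2 had slopes of -0.30 ± 0.08 (adjusted p = 0.104, and 0.0288 with the trend and robust options) and 0.04 ± 0.08 (adjusted p = 0.816). Timp3 was flat without vitamin C (0.01 ± 0.06 per day, adjusted p = 0.946), and its slope with vitamin C, -0.13 ± 0.06, did not pass (adjusted p = 0.256). Of the 3 inhibitor genes, Timp1 was the one whose slopes passed the threshold in the main fit.

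Mmp9, Mmp11 and Mmp14 had no slope past the threshold. Mmp9 measured 5.16, 4.91, 5.08 and 5.48 without and 4.91, 3.94, 4.67 and 5.19 with vitamin C, with the lowest value of each treatment on day 4. Without the treated array of day 3, the slope of Mmp9 with vitamin C became 0.63 per day and passed (adjusted p = 0.0214). Mmp14 measured 9.07, 8.87, 8.75 and 8.63 without and 8.86, 8.40, 8.62 and 8.85 with vitamin C. Its slopes were -0.14 ± 0.08 and 0.02 ± 0.08 per day (adjusted p = 0.381 and 0.909).

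**Figure D4:**
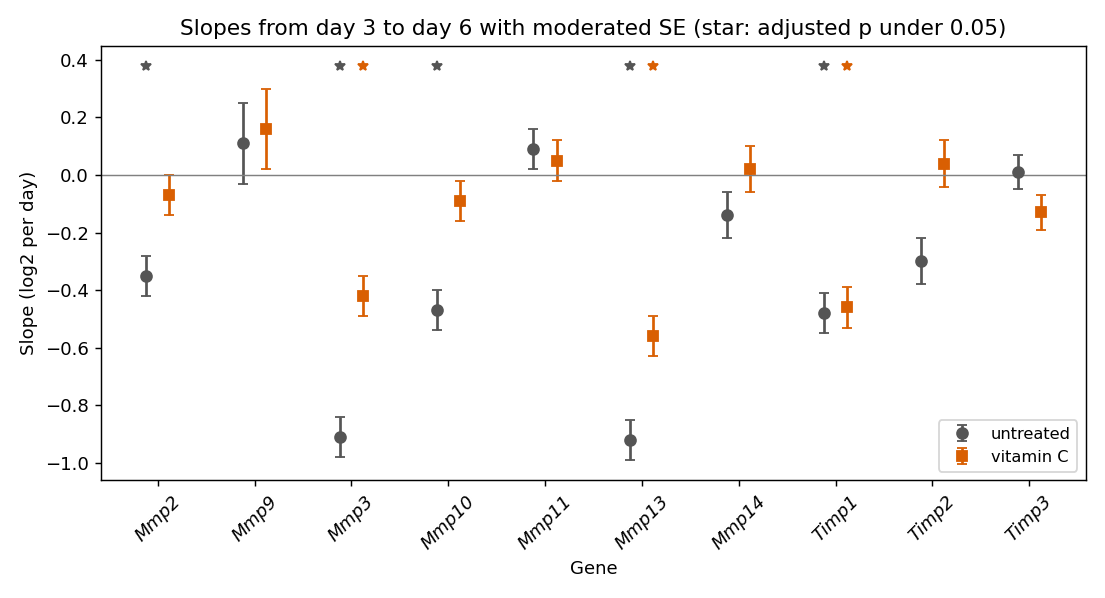
Slope from day 3 to day 6 (log2 per day) with its moderated SE for each gene in untreated cells (grey) and with vitamin C (orange), where a star marks an adjusted p under 0.05. Mmp3 and Mmp13 have the steepest slopes in untreated cells (-0.91 and -0.92), and Timp1 has nearly equal slopes in both treatments.

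The arrays of day 3 and day 6 weigh most in any slope over these 4 days, so leaving 1 of them out costs precision for every gene. Without the untreated array of day 6, 1 member, Mmp13, passed in untreated cells, and without that of day 3 only Mmp3 and Mmp13 did. Without the untreated day 6 array the slopes were -0.78 for Mmp3 (adjusted p = 0.0578), -0.47 for Mmp10 (adjusted p = 0.382) and -0.51 for Timp1 (adjusted p = 0.326). Without that of day 3 they were -0.45 for both Mmp10 and Timp1 (adjusted p = 0.191 and 0.194). In cells with vitamin C, Mmp13 alone passed without the treated array of day 6, and Mmp3 was also lost without that of day 3 (-0.38, adjusted p = 0.0946). The number of genes called among all fell at the same time, from 349 to 8 and 74 in untreated cells and from 1722 to 270 and 775 with vitamin C.

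The marker average declined over the same days, from 7.02 to 6.13 without and from 6.53 to 6.01 with vitamin C. Of the 28 markers, 10 fell and none rose without vitamin C (median slope -0.34), and 9 fell and none rose with it (median -0.20). Col1a1, Col1a2, Pdgfrb, Postn, Prrx1 and Fap fell in both treatments, Thy1, Dcn, Twist2 and Mfap5 without vitamin C, and Col5a2, Fbln2 and Ddr2 with it. None of the 28 passed as a difference between slopes. With the marker average as a covariate, a setting added after the data were seen, 0 genes of all passed in untreated cells and 2 with vitamin C. In that setting the average and day vary together. The slopes of Mmp13 were then -0.996 ± 0.23 without and -0.61 ± 0.15 with vitamin C, and those of Timp1 -0.56 ± 0.22 and -0.50 ± 0.14 (moderated SE). Those of Mmp3 were smaller, -0.64 ± 0.20 and -0.27 ± 0.12, and that of Mmp2 in untreated cells was 0.05 ± 0.18. None of these passed (adjusted p from 0.248 to 1.0).

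The third comparison was whether the 2 slopes differed, that is, whether the vitamin C difference changed with day. None of the 10 genes passed, against 0.0652% of all genes. The largest change was that of Mmp3, 0.48 ± 0.10 per day (moderated SE, adjusted p = 0.134), followed by Mmp10 with 0.39 ± 0.10 (adjusted p = 0.203) and Mmp13 with 0.35 ± 0.11 (adjusted p = 0.251). Timp2 had 0.34 ± 0.12 and Mmp2 0.28 ± 0.10 (adjusted p = 0.327 and 0.35). The falls of Mmp2 and Mmp10 in untreated cells alone are thus not shown to differ between treatments. The values nearest to 0 were those of Timp1 (0.02 ± 0.10), Mmp11 (-0.03 ± 0.09) and Mmp9 (0.05 ± 0.20), and Timp3 had -0.14 ± 0.09. The median of the 10 was 0.22 per day, beside -0.02 over all genes, and that of the feeder or fibroblast markers was 0.14.

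Mmp3, Mmp10 and Mmp13 lie on the same chromosome as other metalloprotease genes. Of 10 metalloprotease genes measured on chromosome 9, these 3 fell in untreated cells and the other 7 had slopes between -0.13 and 0.12 per day, none of which passed. The means of those 7 lay between 2.09 and 3.96, below the array medians, so that a change could have gone unseen. They include Mmp1a, Mmp1b, Mmp12, Mmp20 and Mmp7, which have the AP-1 motif in at least 1 promoter window (Mmp7 and Mmp12 in 1 of 2 windows). Mmp1b, a collagenase-like gene at a mean of 2.09, fell with vitamin C (-0.32 ± 0.08 per day, adjusted p = 0.0409).

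Of 15 metalloprotease genes outside the 10, none passed in the vitamin C comparison, and the smallest p-values were those of Mmp12, the macrophage elastase (0.44 ± 0.11, adjusted p = 0.131), and of Mmp25, a membrane-anchored enzyme (0.61 ± 0.17, adjusted p = 0.156). Mmp25 rose with time under vitamin C, over 4.66, 4.90, 5.75 and 5.79 (0.42 ± 0.09 per day, adjusted p = 0.0157), and stayed between 4.41 and 4.94 without. None of the 15 changed with time in untreated cells, where Mmp16 and Mmp19 came closest (-0.30 and -0.35 per day, adjusted p = 0.0754 and 0.23).

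Among 10 further genes of inhibitors and of inhibitor families none passed in the vitamin C comparison. Reck, the membrane-anchored metalloprotease inhibitor, had the smallest p (-0.30 ± 0.12, adjusted p = 0.353). A2m, which encodes the broad protease trap alpha-2-macroglobulin, rose in both treatments. It measured 3.33, 3.81, 4.53 and 5.89 without and 3.77, 3.87, 4.75 and 5.66 with vitamin C, with slopes of 0.84 and 0.65 per day (adjusted p = 0.00414 and 0.00484). Spock2, a testican gene, also rose in both (0.54 and 0.40 per day, adjusted p = 0.0216 and 0.0287). Serpinh1, the collagen chaperone of the serpin family, fell with vitamin C (-0.30, adjusted p = 0.0401). Its slope without vitamin C was close to that, -0.28, and did not pass (adjusted p = 0.107). Timp4 lay between 2.36 and 2.86 on all arrays.

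Of 13 genes of the plasminogen system, which activates several metalloprotease precursors, Plau was the one that passed. This gene, which encodes urokinase, fell in both treatments, from 6.77 to 5.48 without (-0.43 ± 0.06 per day, adjusted p = 0.0075) and from 6.81 to 5.90 with vitamin C (-0.30 ± 0.06, adjusted p = 0.0148). Its receptor gene Plaur had the smallest p in the vitamin C comparison and did not pass (0.48 ± 0.11, adjusted p = 0.109).

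Among 20 genes of activation, docking and clearance, Thbs1, Thbs2 and Lcn2 fell in untreated cells. Lcn2 went from 7.29 over 7.33 and 6.03 to 4.61 (-0.93 ± 0.13 per day, adjusted p = 0.00568). The thrombospondin genes Thbs1 and Thbs2 had slopes of -0.44 and -0.40 (adjusted p = 0.0199 and 0.0437). With vitamin C, Cldn1 and Cd9 rose (1.05 and 0.28 per day, adjusted p = 0.00476 and 0.0284) and Tspan12 fell (-0.32, adjusted p = 0.0124). Their slopes without it, 0.26, 0.04 and -0.23, did not pass. None of the 20 genes passed as a difference between slopes. None of the 20 passed in the vitamin C comparison, and Thbs1 came closest (-0.73 ± 0.15, adjusted p = 0.0771).

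Of 30 ADAM, ADAMTS and astacin protease genes, 1 was lower with vitamin C than without over the 4 days. It was Adamts5, an aggrecan-cutting enzyme that Timp3 protein is known to inhibit, with -0.73 ± 0.10 (adjusted p = 0.0204). Its levels were 4.95, 5.10, 4.27 and 3.95 without and 4.23, 4.37, 3.46 and 3.29 with vitamin C, lower on every day, with ranges that overlap. With time, Tll1 fell without vitamin C (-0.68 per day, adjusted p = 0.0234), and Adam12, Adamts5 and Adamts7 fell with it (-0.28, -0.37 and -0.46 per day, adjusted p from 0.00171 to 0.0441). The slopes of Adam12, Adamts5 and Adamts7 without vitamin C, -0.30, -0.38 and -0.13, did not pass. Neither did that of Tll1 with it, -0.37. For none of these genes did the difference between the slopes pass.

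Several AP-1 genes rose over the days on which Mmp3 and Mmp13 fell. Of 16 AP-1, ETS and Runx genes, 4 rose and none fell without vitamin C, namely Jun, Fos, Atf3 and Elf3. Jun went from 8.28 over 8.73 and 9.31 to 9.91 without and from 8.23 over 8.79 and 9.60 to 9.95 with vitamin C, by 0.55 and 0.60 per day (adjusted p = 0.00303 and 0.000648). Fos rose by 0.42 and 0.48 per day (adjusted p = 0.0325 and 0.00624), and Atf3 by 0.52 and 0.46 (adjusted p = 0.0389 and 0.0246). Elf3, an epithelial ETS factor, rose by 0.59 and 0.60 (adjusted p = 0.00467 and 0.00158). With vitamin C Fosb also rose (0.41, adjusted p = 0.0327) and the ETS gene Etv4 fell (-0.47, adjusted p = 0.01). Without it their slopes were 0.45 (adjusted p = 0.0545) and -0.24 (adjusted p = 0.199). The slopes of neither gene passed as different between treatments. None of the 16 passed in the vitamin C comparison.

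For Timp3, the member with the smallest p in the vitamin C comparison, and Mmp3, the member with the widest range over the 8 arrays (2.74), the genes with the most similar course were looked up by Pearson's r over the 8 arrays. Closest to Mmp3 were Thbd (0.989), Ccl2 (0.988), Ccl7 (0.981), Lrrk2 (0.98) and Dhx9 (0.98), of which Thbd encodes thrombomodulin and Ccl2 and Ccl7 encode chemokines. Among the members, Mmp13 (0.957), Mmp10 (0.933) and Mmp2 (0.929) were nearest to Mmp3, and Timp3 (0.255) was far from it. Closest to Timp3 were Gyg (0.984), Hnrnpul2 (0.979), Kif7 (0.979), Rnd3 (0.969) and Chd3 (0.968), and no other member had an r with Timp3 above 0.588. Genes picked as the nearest of 19938 have a high r by that choice, the 8 arrays share treatments and days, and these values are a description.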

How the data were processed

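The deposited table holds 1 log2 value for each of 28853 probe sets on each of 8 Affymetrix arrays. Per the submitters' processing notes, the authors made these log2 values with Partek, using RMA. Its version, the probe set definitions and the array's genome build: not given in the sources used here. Values were read as log2 because the largest value, 13.8, exceeds the natural log of the largest 16-bit reading (11.1). The platform annotation gave 1 symbol to 21789 probe sets, several to 1621 and none to 5443, and the probe set with the highest mean was used for each of 19938 genes, which was a choice for 999 genes and for none of the 10 here.

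Fits used limma 3.58.1 in R 4.3.3 (lmFit, eBayes, two-sided, adjusted over 19938 genes). For the vitamin C effect the model held treatment and day, the latter as a factor. Slopes and their difference came from treatment with a slope on day for each treatment. The 2 arrays of a day were paired because the labels give them the same day, and the correlation of their deviations was 0.371, 0.18, 0.125 and 0.475 for days 3 to 6. Errors are limma's moderated SE. The number of arrays limits the precision.

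The members, the gene lists and the alternatives were chosen with earlier results of these data known. Beside the members, genes of each list past the threshold were named, and otherwise up to 2 with the smallest p, with the 5 most similar genes of 2 members. The lists were other metalloproteases, other inhibitors, the plasminogen system, activation and clearance, ADAM and ADAMTS proteases, AP-1, ETS and Runx genes, other matrix proteases, and markers of feeder cells or fibroblasts, pluripotent, blood and endothelial cells. Fap is on 2 lists. Promoters are RefSeq's of GRCm38.p6. Python 3.11.15, pandas 2.3.3 and matplotlib 3.10.9 were used.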

Additional observations from a re-analysis of the deposited data

How the results depend on the processing

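The direction and call of Timp3 in the vitamin C comparison held under 12 of 14 alternatives, with differences from -1.13 to -0.98. Some of the 12 could hardly change it. Timp3 has 1 probe set, so its values were the same in the settings on probe sets, and a threshold of 0.1 is looser. The other 2, without day 4 and without day 5, lost the call. Leaving out 1 array in this comparison removes its day, so only days were left out. That gave 3 to 286 called genes (150 with all days) and 0 to 1 called member. With no replicate block, that is with day left out, 17 genes were called, and 291 with day as a number, 13 with the fibroblast marker mean in place of day, 384 at a threshold of 0.1 and 376 with trend and robust options, which called 2 members (Timp3 and Timp1). The marker mean turned 5 differences that had not passed, to 0.23 (Mmp2), 0.72 (Mmp3), 0.25 (Mmp10), 0.60 (Mmp13) and 0.15 (Timp1).

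For the difference between slopes, 13 genes were called, 20 with a replicate block (day as a factor), 21 after quantile normalization, 20 without the dimmest genes, 80 with trend and robust options, 42 at 0.1 and 0 with the marker mean as a covariate, and 0 to 29 without single arrays. In limma 2244 genes had an unadjusted p under 0.05. No member was called in any of these fits. Timp1 turned to -0.01 after quantile normalization.

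In untreated cells 349 genes had a slope, 782 with trend and robust options, 773 at 0.1, 0 with the marker mean (which left 0 members) and 8 to 530 without single arrays (1 to 5 members). With the marker mean the slopes of Mmp2, Mmp9, Timp2 and Timp3 turned to 0.054, -0.487, 0.195 and -0.054, and Timp3 to -0.002 after median centring. With vitamin C 1722 genes had a slope, 2917 at 0.1, 2 with the marker mean (0 members) and 270 to 1680 without single arrays (1 to 3 members). The marker mean turned Mmp2, Mmp9 and Mmp14 to 0.164, -0.182 and -0.066. Median centring moved the split from 1046 rising and 676 falling to 942 and 930.

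Without single arrays, slopes that had not passed ranged across 0. Without vitamin C this was so for Mmp9 (-0.043 to 0.287). With it, it was so for Mmp9 (-0.12 to 0.63), Mmp10 (-0.174 to 0.085), Mmp11 (-0.05 to 0.15), Mmp14 (-0.12 to 0.23) and Timp2 (-0.093 to 0.158). Differences between slopes ranged from -0.23 to 0.51 for Mmp9, -0.135 to 0.067 for Mmp11 and -0.050 to 0.055 for Timp1. The cause of these changes was not tested. Dim probe sets, Mmp10 among them and Mmp13 on day 6, limit what can be seen.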

Other observations

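Among 20 other proteases and peptidases of the matrix and cell surface, 1 was higher with vitamin C and 6 rose with time under it. Mep1b, a meprin subunit, was higher over the 4 days (1.63 ± 0.19, log2, moderated SE, adjusted p = 0.0128), at 4.07 to 5.08 with and 2.80 to 3.27 without vitamin C. Ctsh, a lysosomal cathepsin, was lower with vitamin C on day 3 (3.90 against 4.86) and higher on day 6 (6.30 against 4.89), and its difference grew by 0.80 ± 0.09 per day (adjusted p = 0.0182). With time under vitamin C 6 of the 20 rose, namely Ctsh, Prss8, Mme, Ctsl, Ctsd and St14, and Fap fell, beside 5.25% of all genes rising and 3.39% falling. Prss8, the membrane serine protease prostasin of epithelia, went from 4.30 over 5.48 and 6.95 to 7.48 with vitamin C (1.10 ± 0.10 per day, adjusted p = 0.000313) and from 4.29 to 5.76 without (0.54 ± 0.10, adjusted p = 0.0209). In untreated cells Fap and Pappa fell (-0.35 and -0.46 per day, adjusted p = 0.0168 and 0.0346).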
